A study of Mus musculus with 6 samples.

Results

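The kinesin genes of the mouse testis are described here: 43 protein-coding genes whose symbol begins with Kif or Kifc followed by a digit, of 54532 genes in the deposited count table. The symbol chose them, not any measured value. Of the 43, 42 code for kinesin motors and 1, Kif1bp, codes for a protein that binds kinesins and is no motor itself. The motors Cenpe and Stard9 and the kinesin-2 subunit Kifap3 have other symbols and were followed beside the 43. The 6 RNA-seq libraries come from whole mouse testis, 3 wild-type (WT) and 3 from the knockout (KO) of 1700052I22Rik, a long non-coding RNA gene, to ask what that gene does in spermatogenesis. No other allele or treatment is named for either group. The labels give neither strain nor age, and they do not say how the gene was disrupted or whether each library came from its own mouse. The p-values below therefore measure the spread between these libraries, which may be technical.

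Kinesins are motor proteins that bind microtubules and use ATP to walk along them or to take them apart at their ends. In the testis they build and split the spindles of dividing germ cells, carry cargo, feed the growing sperm tail through intraflagellar transport, and work on the manchette, the microtubule skirt around the nucleus of an elongating spermatid. The members were ordered by their best known role into spindle and cytokinesis (14 genes), cilium and flagellum (10), transport (12) and other or less certain roles (6), with Kif1bp apart. The motors ranged from 643 to 2112 residues in coded length.

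The knockout was visible in the target itself. 1700052I22Rik (ENSMUSG00000101912, a lincRNA at chr12:80923432-80924449 on the minus strand, mm10) had 185, 175 and 218 counts in the WT libraries and 0 in each KO library, of 53537734 KO counts in all. With a floor of 3 counts over the group, or 0.0564 counts per 1000000 (CPM), it was at least 189-fold lower in KO (edgeR quasi-likelihood test, Benjamini-Hochberg adjusted p = 4.89e-07). Library totals ran from 17635045 to 18117593 counts, and kinesin genes held 0.361% to 0.383% of them. Germ cell markers were abundant: 6 elongating spermatid markers summed to between 12679 and 16134 CPM, and 5 epididymis markers to at most 0.167 CPM, with Lcn5 and Lcn8 at 0. WT 1 and KO 2 stood apart from the other 4 libraries on the leading principal component, at -22.8 and -30.2 against 6.98 to 17.5. Their 7 Leydig cell markers summed to 257 and 287 CPM, against 476 to 902 CPM in the rest. The counts of kinesins called and their median fold change are therefore also given without these 2 libraries.

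Kinesin transcript levels spanned 2198-fold per unit of gene length among the tested genes, and a few genes held most of the reads. Levels between genes are given as CPM per kilobase of the gene length in the deposited table. For 38 of the kinesin genes this length equals the exon union, the combined exons of all annotated transcripts in GENCODE M21. It can be far longer than a single transcript: Kif2a has 6393 bases against 2570 in the transcript used for its coding sequence. Kif15 has 11020 against 4858, while Kif2b has 2244 in both. The order of levels, their span and the family shares therefore depend on this length, and levels by transcript length are not given. Kif2b stood first at 299.7 CPM per kilobase over the 6 libraries. It was followed by Kif17 at 102, Kif9 at 86.9, Kif2c at 75.4, Kif27 at 61.0, Kif3b at 47.0, Kif2a at 43.8, Kif3a at 25.5 and Kif20a at 17.5 CPM per kilobase. The first 7 of these genes by counts took 72.0% of all kinesin counts, and Kif2b alone took 17.9%. Kif20a and 9 others, 10 genes in all, lay between 5 and 20 CPM per kilobase, 17 lay between 1 and 5, and 7 below 1. Kif12 had 0 counts in all 6 libraries and Kif28 had 4 counts in all, so neither was tested.

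By this measure, the order of the leading genes was the same from library to library. Ranks 1 to 9 were the same in all 6 libraries, although the ranges of Kif9 and Kif2c, of Kif2c and Kif27, and of Kif3b and Kif2a overlapped across libraries. Below Kif20a, neighbours mostly did not differ beyond their spread. Over the whole order, 17 of 40 neighbouring pairs kept their order in every library and 12 had ranges that did not touch. Kif1bp and Kif18b, for example, were in order in only 2 of 6 libraries.

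**Figure D1:**
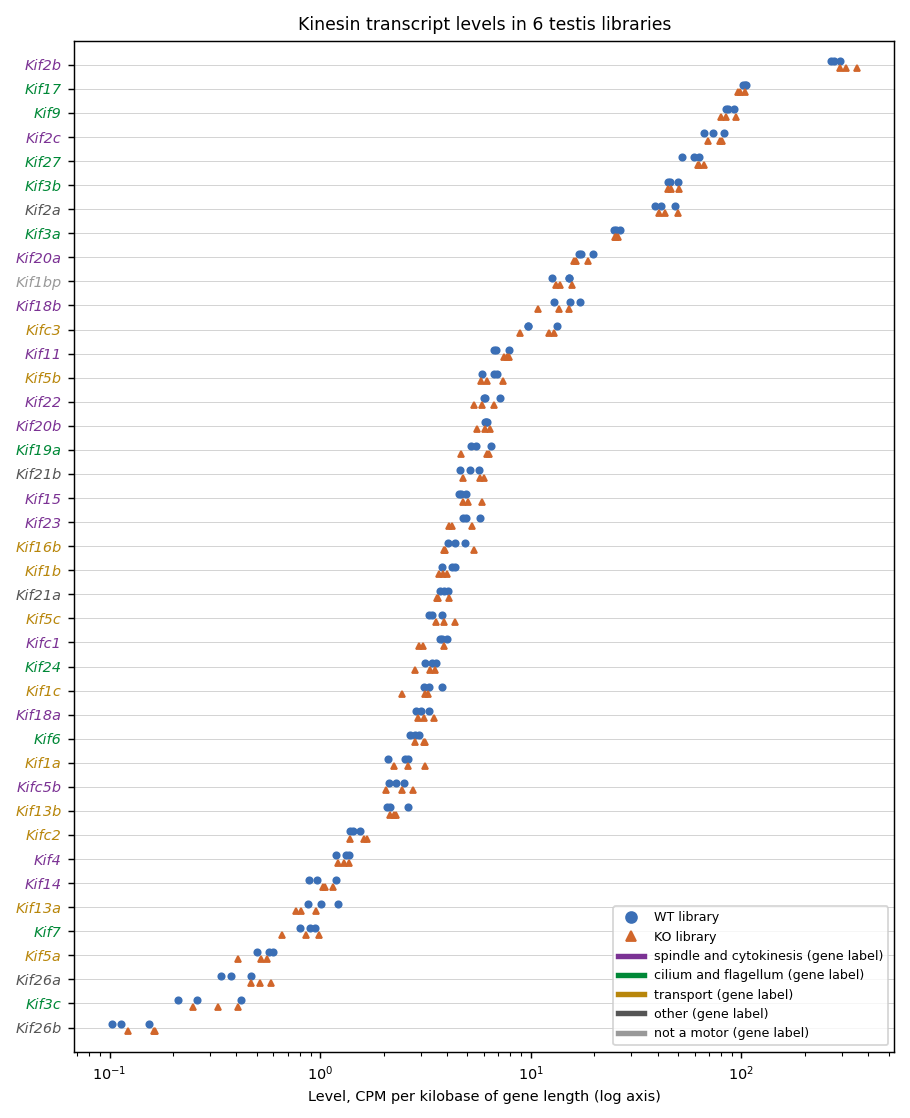
Level of each of the 41 tested kinesin genes in each library, in CPM per kilobase on a log axis, with WT libraries as circles and KO libraries as triangles; gene labels are coloured by role. The points of a gene lie close together beside the distance from Kif2b at 299.7 to Kif26b at 0.136 CPM per kilobase, and WT and KO points intermingle for all but Kif26a.

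No kinesin gene was called between KO and WT. Across the table, 1 of 19320 tested genes, the target, passed an adjusted p of 0.05 (0.00518%), and 0 of 41 kinesins did, with adjusted p from 0.965 to 0.999 in edgeR's quasi-likelihood test. At an unadjusted p under 0.05 there was 1 kinesin of 41, Kif2b (2.44%), beside 4.63% of all tested genes. DESeq2 and limma-voom likewise called 0 kinesins, each with 1 at an unadjusted p under 0.05. Leaving out WT 1 and KO 2 also gave 0 calls, with 3 kinesins at an unadjusted p under 0.05. The 3 libraries of a group lay wholly to 1 side of the other group for 1 kinesin of 41, Kif26a, which was higher in KO; 9.32% of all genes did so, 4.69% with KO above.

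Fold changes were small and evenly signed: 21 kinesins had a higher fitted level in KO and 20 a lower one. Their median log2 fold change (KO over WT) was 0.0019, beside -0.0025 over all tested genes, and 0.0369 without WT 1 and KO 2. Single genes ran from -0.29 for Kif13a to 0.41 for Kif26a. The intervals give the precision. For 36 of 41 kinesins (87.8%) the 95% interval lay within 1.5-fold in either direction, beside 61.6% of all tested genes, and for all 41 it lay within 2-fold, beside 84.5%. Where the mean over libraries was 10 CPM or more, 32 of 32 kinesins and 9516 of 9902 genes (96.1%) lay within 1.5-fold. The intervals of Kif13a, Kif5a, Kif26a, Kif3c and Kif26b reached beyond 1.5-fold. These 5 genes had under 10 CPM, but so did Kif7, Kif4, Kifc2 and Kifc5b, whose intervals stayed within it.

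**Figure D2:**
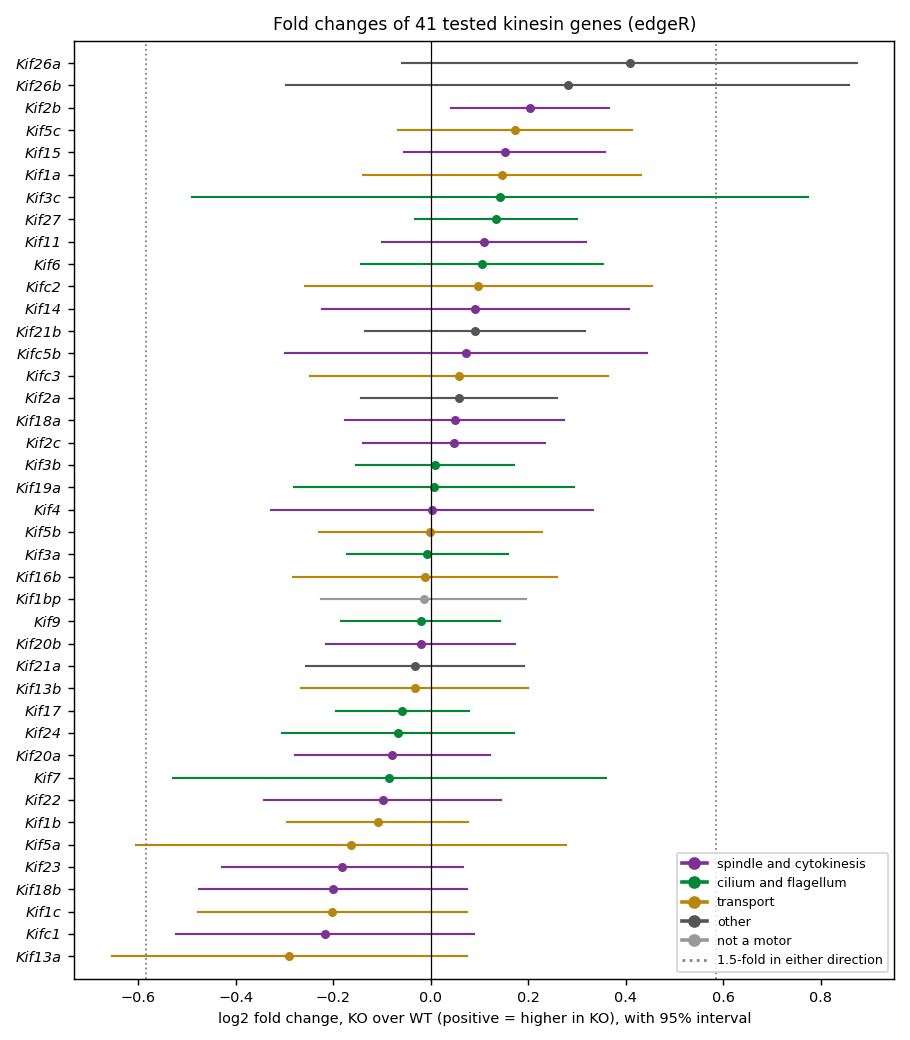
Fitted log2 fold change of each tested kinesin gene, KO over WT, with its 95% interval, coloured by role; dotted lines mark 1.5-fold in either direction. The interval of Kif2b, 0.04 to 0.36, lies wholly above 0, and 5 intervals cross a dotted line.

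Spindle and cytokinesis kinesins were led by Kif2b, a member of the kinesin-13 family that takes microtubules apart at kinetochores. Kif2b (ENSMUSG00000046755, chr11:91575315-91577558, minus strand) is a single-exon gene, the only one among the 42 motors, and codes for 668 residues. Its WT libraries 1 to 3 measured 598, 616 and 661 CPM, and its KO libraries 705, 659.8 and 795 CPM, an order kept for every gene below. The highest WT library stood just above the lowest KO library, and the other KO libraries exceeded all WT. The mean was 625 ± 32.5 CPM in WT and 719.9 ± 68.7 CPM in KO (SD, n = 3 each), which gave a log2 fold change of 0.20 (95% interval 0.04 to 0.36). Its unadjusted p of 0.0170 became 0.965 after adjustment over all genes in edgeR. Leaving out 1 library at a time moved the unadjusted p in edgeR between 0.0031 and 0.125, and it was not under 0.05 without WT 1, without WT 2 or without KO 3.

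Kif2c, its relative that corrects faulty kinetochore attachments, measured 319, 290.4 and 361 CPM in WT and 353, 304 and 346 CPM in KO. These ranges lay over each other, with a log2 fold change of 0.05 (95% interval -0.14 to 0.23). Kif20a, which works at the midzone in cytokinesis, measured 74.6, 64.1 and 65.7 CPM in WT and 62.2, 70.6 and 60.8 CPM in KO. The highest value of each group was in WT 1 and in KO 2.

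Kif18b, which shortens astral microtubules, measured 61.5, 55.1 and 46.1 CPM in WT and 48.4, 54.5 and 38.7 CPM in KO. Its log2 fold change was -0.20 (95% interval -0.47 to 0.07). Kif15, which helps to keep the spindle bipolar beside Kif11, measured 51.4, 50.2 and 54.0 CPM in WT and 55.5, 52.4 and 64.9 CPM in KO. KO 3 stood highest and KO 2 within the WT range, for a log2 fold change of 0.15 (95% interval -0.05 to 0.36). The 14 spindle kinesins together had 8 fitted values above 0 and 6 below, with a median log2 fold change of 0.02. The others were Kif11, Kif22 and Kif4 of the spindle and chromosome arms, Kif18a of chromosome alignment, Kif14, Kif20b and Kif23 of cytokinesis, and the pair Kifc1 and Kifc5b. All 14 intervals lay within 1.5-fold.

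Genes of the cilium and flagellum held ranks 2, 3, 5, 6 and 8 in level. Kif17 (chr4:138250435-138301967, plus strand), a kinesin-2 motor that in round spermatids also carries the transcriptional coactivator coded by Fhl5, measured 482, 467 and 476 CPM in WT and 449, 477 and 443 CPM in KO. KO 2 alone fell in the WT range, and the log2 fold change was -0.06 (95% interval -0.19 to 0.08). Kif9 (chr9:110476958-110525179, plus strand), a kinesin-9 motor of motile cilia and sperm tails, measured 396, 371 and 362 CPM in WT and 364, 407 and 343 CPM in KO. Its groups overlapped, with a log2 fold change of -0.02 (95% interval -0.18 to 0.14).

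Kif27 (chr13:58287502-58359122, minus strand), a kinesin-4 relative needed for motile cilia, measured 327, 273 and 310.3 CPM in WT and 324, 327 and 348 CPM in KO. The KO values clustered at the upper end of the WT range or above it, with a log2 fold change of 0.13 (95% interval -0.03 to 0.30) and an unadjusted p of 0.105 in edgeR. Kif3b (chr2:153291413-153333390, plus strand), a heavy chain of the kinesin that drives intraflagellar transport outward, measured 281, 258 and 254 CPM in WT and 259.6, 285 and 252 CPM in KO. Its partner Kif3a measured 95.3, 89.4 and 90.6 CPM in WT and 91.0, 93.2 and 89.8 CPM in KO, the narrowest spread of any kinesin (within-group SD of 0.04 on the log2 CPM scale, against a median of 0.14).

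The balance inside this motor complex overlapped between the groups. Kif3b ran at 1.83 ± 0.05 times Kif3a in WT and 1.85 ± 0.08 times in KO per unit of length (SD, n = 3 each, exact permutation p = 0.8). The size of this ratio depends on the lengths used. Kif3a has a deposited length of 3586 bases against 2178 in the transcript used for its coding sequence, and Kif3b has 5635 in both. Kifap3, the non-motor subunit that joins the heavy chains to cargo, ran at 3.26 ± 0.07 times Kif3a in WT and 3.54 ± 0.23 times in KO (exact permutation p = 0.2). With 3 libraries against 3, such a test cannot go below 0.1; over the 7 ratios computed no adjusted p was under 0.467. The 10 cilium and flagellum kinesins had 5 fitted values above 0 and 5 below, with a median log2 fold change of 0.00014. Kif19a, which limits cilium length, Kif24 of the centriole, Kif6, Kif7 of Hedgehog signalling and Kif3c complete the group, and only the interval of Kif3c, at 1.56 to 3.11 CPM, was wider than 1.5-fold.

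Transport kinesins were scarcer, at 11.1 CPM per kilobase for Kifc3 and less for the rest. Kifc3, a minus-end directed motor linked to cell junctions, measured 51.5, 51.2 and 70.5 CPM in WT and 68.4, 47.3 and 64.5 CPM in KO. WT 3, KO 1 and KO 3 were high and the other 3 libraries low, so that each genotype had both. Kif5b, the widely used heavy chain of conventional kinesin, measured 51.0, 49.2 and 43.3 CPM in WT and 42.9, 54.8 and 45.7 CPM in KO, with means of 47.8 CPM in both groups. Kif16b, which moves early endosomes, measured 44.2, 39.5 and 36.7 CPM in WT and 35.4, 48.7 and 35.2 CPM in KO. As with Kif5b, the highest library of each group was WT 1 and KO 2.

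Kif1b, a carrier of mitochondria and synaptic vesicle precursors, measured 74.7, 77.0 and 66.6 CPM in WT and 64.7, 67.4 and 70.3 CPM in KO (log2 fold change -0.11, 95% interval -0.29 to 0.08). Kif13a, which carries vesicles from the trans-Golgi network, had the most negative fitted value of the 41. It measured 7.10, 9.86 and 8.20 CPM in WT and 7.76, 6.58 and 6.23 CPM in KO, which gave a log2 fold change of -0.29 (95% interval -0.65 to 0.07). WT 1 lay inside the KO range. Kif1c, a vesicle motor, measured 22.5, 23.8 and 27.7 CPM in WT and 23.7, 17.9 and 22.8 CPM in KO (log2 fold change -0.20, 95% interval -0.48 to 0.07), with KO 2 below the rest. Of the 11 tested transport kinesins, Kif1a, Kif5a, Kif5c, Kif13b and Kifc2 among them, 4 were above 0 and 7 below, with a median log2 fold change of -0.01.

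The remaining motors have mixed or uncertain roles. Kif2a (chr13:106958996-107022126, minus strand), a kinesin-13 motor known from neurons and spindle poles, measured 309.8, 265 and 248 CPM in WT and 261, 319 and 277 CPM in KO, again highest in WT 1 and KO 2. Kif21b, a regulator of microtubule growth, measured 62.7, 56.4 and 69.5 CPM in WT and 70.3, 57.9 and 72.8 CPM in KO. Its relative Kif21a measured 25.0, 26.1 and 23.9 CPM in WT and 23.2, 23.6 and 26.4 CPM in KO. Both overlapped between the groups.

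Kif26a (chr12:112146208-112181747, plus strand), an atypical kinesin known as a brake on growth factor signalling in enteric neurons, was the only kinesin with no overlap. It measured 2.61, 2.34 and 3.25 CPM in WT and 3.26, 4.03 and 3.59 CPM in KO, so that WT 3 and KO 1 all but touched. The mean was 2.73 ± 0.466 CPM in WT and 3.63 ± 0.384 CPM in KO (SD, n = 3 each), which gave a log2 fold change of 0.41 (95% interval -0.06 to 0.87), and its unadjusted p in edgeR was 0.0822. Its relative Kif26b measured 1.66, 1.5 and 2.26 CPM in WT and 2.42, 2.38 and 1.80 CPM in KO, with overlap (log2 fold change 0.28, 95% interval -0.30 to 0.86). Kif1bp measured 74.2, 74.1 and 61.9 CPM in WT and 64.1, 76.4 and 67.6 CPM in KO.

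Kifc1 and Kifc5b are near-identical genes on chromosome 17, so their reads cannot be split with certainty. Kifc1 codes for the minus-end directed motor that focuses spindle poles and works in acrosome formation, and Kifc5b is its close copy. In GENCODE M21, which shares the mm10 coordinates, Kifc1 lies at chr17:33875659-33890661 on the minus strand and Kifc5b at chr17:26917091-26932583 on the plus strand. Their coding sequences matched at 98.4% of 2019 aligned bases, with 32 mismatches and an unbroken identical stretch of 268 bases, longer than a short read. Of the 50-base words of Kifc1, 45.8% also occurred in Kifc5b, and 40.9% of those of Kifc5b occurred in Kifc1. The 120-base coding stretches below, bases 54 to 173 of the Kifc1 coding sequence and 51 to 170 of that of Kifc5b, show where the copies can be told apart; capitals mark their 4 mismatches.
Kifc1: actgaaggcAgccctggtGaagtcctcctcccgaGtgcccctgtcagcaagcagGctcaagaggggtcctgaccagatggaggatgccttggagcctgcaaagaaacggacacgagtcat
Kifc5b: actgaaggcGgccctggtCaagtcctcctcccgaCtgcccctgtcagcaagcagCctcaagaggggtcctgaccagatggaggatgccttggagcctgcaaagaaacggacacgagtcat

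Kifc1 measured 12.6, 12.9 and 13.7 CPM in WT and 13.2, 9.99 and 10.4 CPM in KO (log2 fold change -0.22, 95% interval -0.52 to 0.09). Kifc5b measured 5.99, 6.58 and 5.56 CPM in WT and 7.26, 5.39 and 6.40 CPM in KO (log2 fold change 0.07, 95% interval -0.30 to 0.44). Both overlapped between groups, and so did their sum, at 18.6, 19.4 and 19.2 CPM in WT and 20.5, 15.4 and 16.8 CPM in KO. The deposited length of Kifc5b, 2627 bases, is shorter than its exon union of 3700 bases in GENCODE M21. That of Kifc1, 3407 bases, is close to its exon union of 3414. The size of a ratio per unit of length depends on these lengths, but the order of the libraries does not. Per unit of deposited length, Kifc1 ran at 1.62, 1.51 and 1.89 times Kifc5b in WT and at 1.40, 1.43 and 1.26 times in KO. These ratios did not overlap (exact permutation p = 0.1, the smallest possible; adjusted over the 7 ratios 0.467), and the rule by which shared reads were counted was not given in the sources used here.

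Kif4, a chromokinesin on the X chromosome (chrX:100625737-100727214), has a transcribed processed pseudogene, Kif4-ps, on chromosome 12. Kif4 measured 7.54, 7.30 and 6.55 CPM in WT and 7.60, 7.15 and 6.68 CPM in KO, a log2 fold change of 0.00 (95% interval -0.33 to 0.33). Kif4-ps (chr12:101145614-101149758) measured 28.5, 24.0 and 27.2 CPM in WT and 29.5, 23.4 and 34.6 CPM in KO. The pseudogene thus stood at 4.97 ± 0.58 times Kif4 in WT and 5.47 ± 1.30 times in KO per unit of length (SD, n = 3 each). The transcripts of both matched at 79.8% of their aligned bases, far less than the Kifc1 pair.

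Other kinesins share bases with a gene on the opposite strand, and the strand setting of the counts was not given in the sources used here. Antisense exons covered 40.7% of the exonic bases of Kif3c, 29.3% of Kif20a (by Cdc23), 20.3% of Kif7, 19.2% of Kif2a (by Dimt1), 15.1% of Kif4 (by Pdzd11) and 10.1% of Kif1bp. Whether reads there were counted by strand is therefore not known. Kif2b and Kif9 had no such overlap. Kif17 shared 1.62% of its bases with Sh2d5, which lies on the same strand.

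Within kinesin families, each gene's share was taken of the family's summed CPM per kilobase, so its size depends on the deposited lengths. Between the group means, a share differed by at most 3.72 percentage points, for Kif18b in kinesin-8. In kinesin-13, Kif2b made up 69.8 ± 1.62% in WT and 72.0 ± 1.62% in KO, Kif2c 18.5 ± 1.24% and 17.2 ± 1.05%, and Kif2a 10.8 ± 1.56% and 10.1 ± 1.62%. In kinesin-2, Kif17 made up 58.8 ± 0.91% in WT and 57.7 ± 0.269% in KO, with Kif3b at 26.5 ± 0.793% and 27.3 ± 0.576%. Kif9 held 96.9 ± 0.121% of kinesin-9 in WT and 96.6 ± 0.458% in KO, and Kif27 held 83.8 ± 1.03% and 84.9 ± 0.739% of kinesin-4. In kinesin-1, Kif5b was ahead of the more neuronal Kif5c and Kif5a, at 61.5 ± 3.81% in WT and 59.2 ± 4.46% in KO (SD, n = 3 each throughout). Of 38 shares computed, 4 did not overlap between groups (Kif18a higher in KO; Kif21a, Kif24 and Kifc1 lower), each with an exact permutation p of 0.1 and 0.704 after adjustment over the 38.

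**Figure D3:**
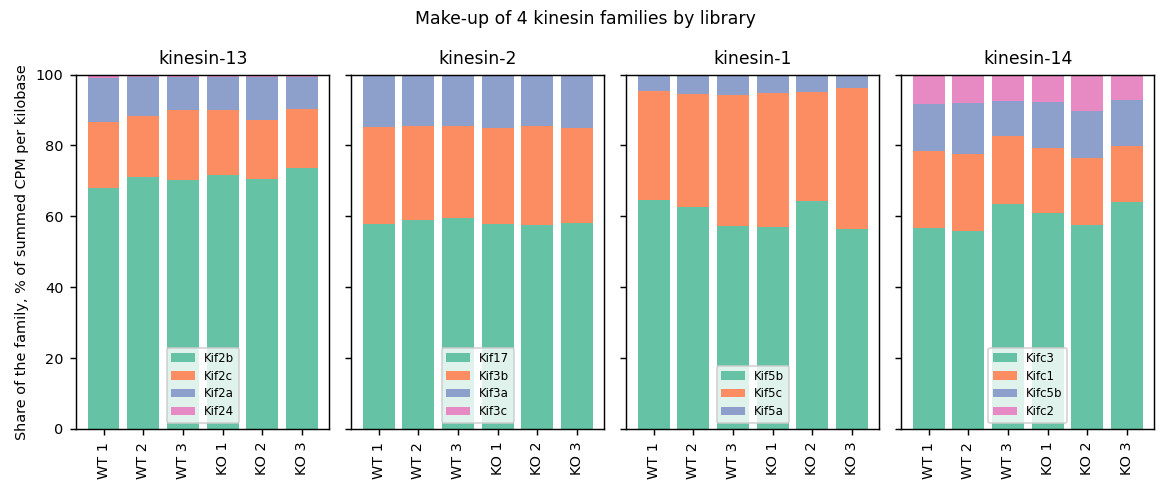
Share of each gene in the summed CPM per kilobase of its family, in percent, for 4 kinesin families, with 1 stacked bar per library. The bars keep nearly the same make-up in all 6 libraries; Kif5b is highest in WT 1 (64.5%) and KO 2 (64.4%).

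One pattern across libraries did not follow genotype. WT 1 and KO 2 were counted together because they stood apart from the rest, and no other pair was counted. WT 1 and KO 2 were the highest pair of the 6 for 13 of 41 kinesins, beside 12.5% of all tested genes, and the lowest pair for 1, Kif1c, beside 10.8%. The 13 were Kif17, Kif9, Kif3b and Kif3a of the cilium, Kif20a, Kif23, Kif18a and Kif14 of the spindle, Kif5b and Kif16b of transport, and Kif2a, Kif3c and Kif1bp. The differences were modest, as the values of Kif9 (396 and 407 CPM against 343 to 371) and Kif16b (44.2 and 48.7 CPM against 35.2 to 39.5) show. The same libraries were low in Leydig cell markers (257 and 287 CPM against 476 to 902). Their 9 spermatocyte markers summed to 1274 and 1298 CPM, against 1141 to 1264 in the rest, and their elongating spermatid markers to 14689 and 12679 CPM, against 13435 to 16134. The part of these markers in the kinesin values was not tested. In whole-tissue RNA, fewer cells of a type and less RNA per cell cannot be told apart.

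Between genotypes, 8 of 8 macrophage markers had fitted values below 0, with sums of 75.4 to 100.2 CPM in WT and 58.0 to 81.2 CPM in KO. None of the 8 was called in edgeR, and 4 had an unadjusted p under 0.05, beside 4.63% of all tested genes. For Sertoli cells 6 of 8 markers were below 0, with sums of 907 to 1045 CPM in WT and 846 to 898 CPM in KO, and for Leydig cells 7 of 7 were below 0, again with 0 called. The Leydig sums overlapped between the groups, at 257, 902 and 709 CPM in WT and 670, 287 and 476 CPM in KO. The 3 tested blood markers were below 0 as well. Other somatic lists did not lean to 1 side. Of 6 endothelial markers 3 were above 0 and 3 below, and of 4 tested peritubular myoid markers 2 were above 0 and 2 below. An unadjusted p under 0.05 in edgeR was found for 3 endothelial, 2 Sertoli, 1 Leydig and 1 blood marker, with 0 called. KO lay wholly below WT for 1 Sertoli, 1 Leydig and 1 endothelial marker, and wholly above it for 1 endothelial marker. Among germ cells, 7 of 8 round spermatid markers had fitted values above 0 (median log2 fold change 0.12), with sums of 1140 to 1276 CPM in WT and 1259 to 1348 CPM in KO. Among the round spermatid markers 1 had KO wholly above WT, as did 4.69% of all tested genes. Of 9 spermatogonia markers, 6 were below 0 and 2 had KO wholly below WT, as did 4.63% of all tested genes. Each of these germ cell lists held 2 genes with an unadjusted p under 0.05 and 0 called. Of 9 spermatocyte markers 5 were above 0, and of 6 elongating spermatid markers 3 were. The part of these markers in the kinesin values was not tested either. Of 7 nerve markers, chosen because many transport kinesins are best known from neurons, Snap25, Nefl, Nefm, Stmn2 and Rbfox3 were each under 1 CPM in every library. The 7 summed to 82.0 to 90.3 CPM, of which Map2 made up 79.4 to 87.7 CPM.

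**Figure D4:**
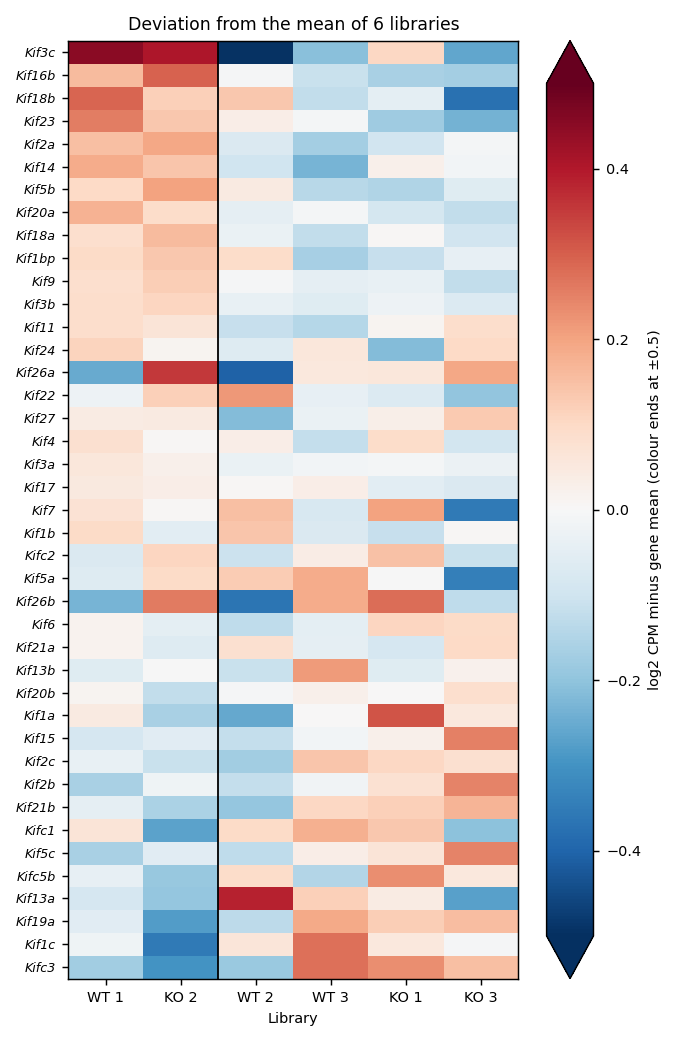
Deviation of each tested kinesin gene from its own mean over the 6 libraries, on the log2 CPM scale, with genes in rows and libraries in columns; red is above the mean and blue below, and rows are sorted by the mean of WT 1 and KO 2, drawn first. The upper rows, from Kif3c and Kif16b down to Kif3b, are red in both WT 1 and KO 2, which were the highest pair for 13 genes.

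Genes that work with kinesins were followed in 5 lists, and every interval in them lay within 1.5-fold. Among 14 light chains and adaptors, 0 were called, 6 were above 0 and 8 below, and the median log2 fold change was -0.01. Fhl5, the coactivator carried by Kif17, measured 216, 197 and 216 CPM in WT and 245, 209.6 and 299.6 CPM in KO, with KO 3 far above the rest (log2 fold change 0.26, 95% interval 0.04 to 0.49, edgeR unadjusted p = 0.0260, adjusted 0.965). Plekhm2, a lysosomal adaptor of conventional kinesin, measured 119, 113 and 114 CPM in WT and 112, 108 and 88.7 CPM in KO, with no overlap but an interval from -0.36 to 0.03. Kifap3 measured 344, 334 and 327 CPM in WT and 336, 371 and 377 CPM in KO.

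Of the motors outside the symbol rule, Cenpe, the kinetochore kinesin, measured 115, 88.9 and 82.6 CPM in WT and 94.5, 109.6 and 83.0 CPM in KO, highest in WT 1 and KO 2 like the 13 above. Stard9, a kinesin of the pericentriolar material, measured 61.5, 62.8 and 57.9 CPM in WT and 65.7, 74.3 and 73.1 CPM in KO. All KO values of Stard9 exceeded all WT values (log2 fold change 0.23, 95% interval 0.04 to 0.41, edgeR unadjusted p = 0.0199, adjusted 0.965).

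Intraflagellar transport genes, the cargo trains of Kif3a and Kif3b, numbered 20, with 0 called, 10 above 0 and 10 below. KO lay wholly above WT for 2 of the 20, beside 4.69% of all tested genes, and wholly below for 1, beside 4.63%. Ift74 measured 223, 214 and 192 CPM in WT and 228, 244 and 227 CPM in KO, without overlap (log2 fold change 0.15, 95% interval -0.01 to 0.32). Ift43 measured 85.6, 100.1 and 82.9 CPM in WT and 91.3, 75.5 and 72.4 CPM in KO (log2 fold change -0.17, 95% interval -0.39 to 0.06). Of 18 spindle and midzone partners, 0 were called, 6 were above 0 and 12 below, with a median log2 fold change of -0.04. The mitotic kinase Plk1 measured 101, 98.5 and 93.0 CPM in WT and 96.3, 94.2 and 69.9 CPM in KO, where KO 3 alone was low. Prc1, which bundles midzone microtubules, measured 76.3, 79.6 and 86.6 CPM in WT and 83.3, 85.8 and 92.2 CPM in KO.

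Cytoplasmic dynein moves the opposite way from most kinesins along microtubules. Together with dynactin it had 20 tested genes, with 0 called, 9 above 0 and 11 below. Dync2li1, a subunit of the dynein that returns intraflagellar cargo, measured 39.5, 42.1 and 33.7 CPM in WT and 32.7, 35.9 and 31.8 CPM in KO. Ndel1, a dynein regulator, measured 47.5, 48.8 and 49.0 CPM in WT and 54.0, 54.2 and 50.8 CPM in KO, without overlap (log2 fold change 0.13, 95% interval -0.05 to 0.31).

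The promoters of the kinesins were searched for short words known from cell cycle and cilium genes. RefSeq promoter windows of 300 bases on GRCm38.p6, 250 before and 50 after the annotated start, were matched for 34 of the 43 genes; Kif5a, Kif5b, Kif13b, Kif19a, Kif20a, Kif21b, Kif28, Kifc2 and Kifc3 were not matched. Kif1a, Kif1b, Kif2a and Kif9 have a second window, and the counts take the first window listed for each gene. Each window was searched on both strands for TTTGAA (the core of the element that times many mitotic genes), CCAAT (the box bound by NF-Y), TGACGT (from the cyclic AMP response element) and GTTGCC (from the element bound by the RFX factors of ciliated cells). A palindromic response element counts as 2 matches of TGACGT, and none of the 4 words contains another. TTTGAA occurred in 11 of 13 spindle kinesins, 1 of 9 cilium kinesins and 0 of 6 transport kinesins in these first windows, beside 18.1% of 27025 promoters and 15.6% of 16497 promoters of protein-coding genes. The second window of Kif1a, a transport kinesin, held 1 match. A further match lay in Kif26b, of the other or less certain roles. The difference between roles was not tested. Such a match is a description of the letters and not a bound site.

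The 11 spindle promoters with the word are shown because it recurs in the promoter windows of genes on 8 chromosomes. Each line gives 30 bases on the gene's strand around the match nearest the start, with TTTGAA or its reverse complement in capitals.
Kif14: ggaggtcctgtcTTTGAAgtctgcagtgtc
Kif2c: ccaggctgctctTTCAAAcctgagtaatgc
Kif22: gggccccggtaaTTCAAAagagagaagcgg
Kif23: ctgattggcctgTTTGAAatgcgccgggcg
Kif15: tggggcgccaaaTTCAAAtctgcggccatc
Kif18b: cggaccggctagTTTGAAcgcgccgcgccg
Kifc5b: cggaggttgaaaTTCAAAagtgactggtgt
Kifc1: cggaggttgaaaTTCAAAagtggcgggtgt
Kif20b: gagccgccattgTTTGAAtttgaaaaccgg
Kif11: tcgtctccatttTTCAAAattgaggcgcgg
Kif4: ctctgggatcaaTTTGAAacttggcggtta

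In Kif11 (chr19:37376351-37376380) and Kif15 (chr9:122951050-122951079) the match began 19 bases before the start, in Kif22 (chr7:127042420-127042449) 17 bases before it, in Kif2c (chr4:117178858-117178887) 103 and in Kif14 (chr1:136467608-136467637) 228 bases before it. In the other 6 it lay within the 50 bases after the start. The windows of Kifc1 and Kifc5b differ at 2 of 30 bases. Of the 13 spindle kinesins with a window, Kif2b and Kif18a lack the word.

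Kif2b, the most abundant kinesin, lacks the word that 11 of 13 spindle kinesins hold. Its 250 bases before the start (chr11:91577556-91577805, minus strand) are shown for that reason; the only match is a CCAAT, in capitals, beginning 44 bases before the start.
Kif2b: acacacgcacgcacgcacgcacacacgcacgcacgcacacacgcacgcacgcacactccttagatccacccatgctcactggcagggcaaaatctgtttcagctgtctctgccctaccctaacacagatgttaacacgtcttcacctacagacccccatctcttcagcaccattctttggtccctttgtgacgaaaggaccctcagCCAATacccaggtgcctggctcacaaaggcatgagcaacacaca

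GTTGCC occurred in 5 of 9 cilium, 2 of 13 spindle and 1 of 6 transport kinesins, beside 12.7% of all promoters. The 30-base windows around it are shown for the 5 cilium kinesins only, on the gene's strand with GTTGCC in capitals. Kif17, Kif9 and Kif3a held ranks 2, 3 and 8 in level, and Kif24 and Kif3c ranks 26 and 40. Of the cilium kinesins without a match, Kif27 and Kif3b held ranks 5 and 6, and Kif6 and Kif7 ranks 29 and 37.
Kif24: ggcgcttgtggcGTTGCCatggggatgtgg
Kif17: gacgtcacggagGTTGCCcagcaacggcga
Kif9: tgcaggcttcctGTTGCCatggcgactgtg
Kif3a: caccccgcaggcGTTGCCccagtctagcgt
Kif3c: ccgagaatggcgGTTGCCgagagaacacgc

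In Kif17 (chr4:138262166-138262195) the word began 73 bases before the RefSeq start, and a palindromic cyclic AMP response element (2 matches of TGACGT) lay just ahead of it. That start lies inside the Kif17 gene of the count table, which begins at 138250435. Kif2c, Kif14, Kif4 and Kif27 likewise have first windows wholly inside their genes. TGACGT was otherwise found in Kif18a (3 matches), Kif5c (2) and Kif15 (1), beside 7.64% of all promoters. CCAAT occurred in 9 of 13 spindle, 5 of 9 cilium and 1 of 6 transport kinesins, beside 37.9% of all promoters. The 1 cilium kinesin with TTTGAA was Kif27, with 3 matches in a window of only 33.3% G and C. In none of these role groups was a kinesin called between KO and WT (0 of 41 in all).

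**Figure D5:**
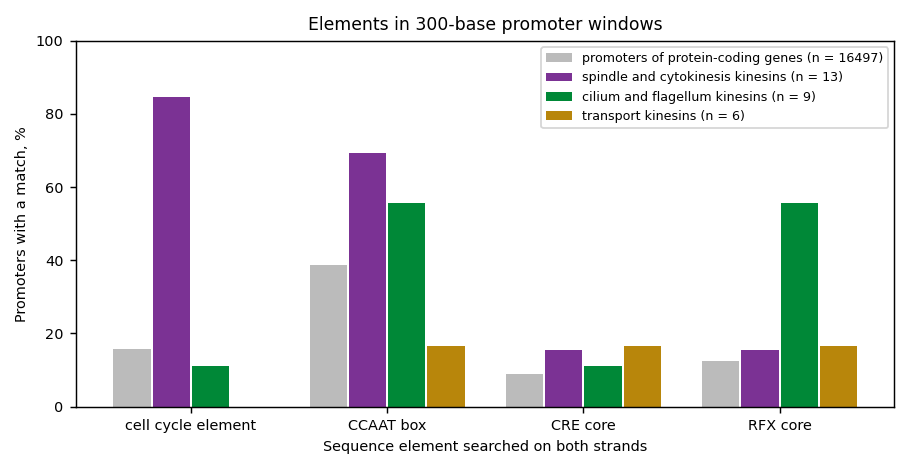
Share of 300-base promoter windows with at least 1 match of each searched word on either strand, in percent, for protein-coding genes and for spindle, cilium and transport kinesins. The word TTTGAA, labelled cell cycle element, stands at 84.6% of spindle windows against 15.6% of coding promoters, and GTTGCC, labelled RFX core, at 55.6% of cilium windows against 12.4%.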

How the data were processed

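RNA was isolated with TRIzol and made into libraries with a VAHTS mRNA-seq v2 kit, per the labels' protocols. The submitters' processing notes name HISAT2 2.0.0 and the mm10 build. Per the file headers, the authors' table holds a raw count for each gene and library beside a gene length in bases. Which counting tool, annotation release and strand setting made it was not given in the sources used here. Low genes were removed by filterByExpr of edgeR (minimum count 10, minimum total 15), and libraries were scaled by TMM (factors 0.992 to 1.01) and compared by edgeR 4.0.16's quasi-likelihood test in R 4.3.3, KO against WT with no covariate, with Benjamini-Hochberg adjustment over 19320 genes at 0.05. The fit gave a biological coefficient of variation of 0.112. CPM use the TMM factors, and 95% intervals come from the fit's moderated standard errors. The test was checked on simulated counts. Floors cover counting error only. Single ratios and shares were compared by two-sided exact permutation tests. Alternatives used DESeq2 1.42.0 and limma 3.58.1.

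All 43 kinesins were found in GENCODE M21, 40 with the same coordinates; exons, coding sequences and shared 50-base words were taken from it, and sequences were aligned with Biopython 1.88. Promoters are from RefSeq (GRCm38.p6). The members, role groups, pathway and marker lists were chosen with earlier results of these data known. Values per library are given for the 4 highest genes per kilobase and the 2 with the smallest p of each role group, for near-identical pairs, and for the 2 genes of smallest p in each pathway list. Kif3a, Kif1bp, Kif4 with Kif4-ps, Kifap3, Kif3c and those in the closing observations were picked with their values in view. Every pair of libraries differed by more than sampling noise, so all 6 were counted.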

Additional observations from a re-analysis of the deposited data

How the results depend on the processing

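Kinesin genes called stayed at 0 under the 13 alternatives, with 0 to 4 kinesins at an unadjusted p under 0.05. The count of genes called over all genes, 1 as reported, became 50 with no low-count filter, 2 with DESeq2, 9 with WT 1 and KO 2 both left out, and 1 to 3 with 1 library left out; the causes were not tested. The kinesin median log2 fold change, 0.0019 as reported, was 0.0369 with WT 1 and KO 2 both left out and lay between -0.017 and 0.037 with 1 library left out, where leaving out WT 1 gave the highest value.

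Replicate numbers are shared between the groups, but same-numbered libraries deviated together with correlations of only -0.17, -0.03 and 0.11, and of the 3 numbers only number 3 paired each library with its best partner, so the numbers were not taken as pairs. With the replicate number as a block, 1 gene and 0 kinesins were called and the kinesin median was 0.0019.

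Genes near 0 changed sign. Kif5b was 0.0021 with DESeq2 size factors and 0.0021 with DESeq2, and with WT 1 and KO 2 both left out Kif3a was 0.0092 and Kif20b 0.0369. With 1 library left out, log2 fold changes ran from -0.097 to 0.074 for Kif13b, -0.18 to 0.068 for Kif16b, -0.017 to 0.11 for Kif18a, -0.070 to 0.14 for Kif19a, -0.096 to 0.040 for Kif1bp, -0.070 to 0.037 for Kif20b, -0.093 to 0.0036 for Kif21a, -0.14 to 0.020 for Kif24, -0.024 to 0.15 for Kif2a, -0.027 to 0.13 for Kif2c, -0.027 to 0.021 for Kif3a, -0.041 to 0.055 for Kif3b, -0.053 to 0.47 for Kif3c, -0.055 to 0.048 for Kif4, -0.11 to 0.073 for Kif5b, -0.22 to 0.056 for Kif7, -0.086 to 0.034 for Kif9, -0.045 to 0.23 for Kifc3 and -0.034 to 0.18 for Kifc5b. The other 22 kinesins kept their sign in all 13 alternatives. Of the tested kinesins under 10 CPM, 5 had intervals that reached beyond 1.5-fold; the part of depth in this was not tested.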

Other observations

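The RNA gene Kif16bos and the pseudogenes Kifc5c-ps and Kif22-ps carry kinesin names but fall outside the rule. Kif16bos, an antisense RNA beside the start of Kif16b (chr2:142902965-142903572, plus strand, mm10), measured 3.72, 5.18 and 5.45 CPM in WT and 4.33, 3.40 and 4.15 CPM in KO, with overlap between the groups (log2 fold change -0.27, 95% interval -0.71 to 0.17). WT 1 and KO 2 were its lowest libraries, where Kif16b itself was highest. The transcribed processed pseudogene Kifc5c-ps had 5 to 16 counts per library and was not tested, and the processed pseudogene Kif22-ps had 0 counts in all 6 libraries.

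Spread within groups differed between kinesins. The within-group SD on the log2 CPM scale ran from 0.04 for Kif3a to 0.42 for Kif3c, which had under 4 CPM in every library. It was 0.04 for Kif17 and 0.27 for Kifc3.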
